A study of Danio rerio with 15 samples.

Results

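The diet-by-sex comparison asked which brain transcripts of adult zebrafish stood higher on a selenium-supplemented diet in one sex and lower in the other. It was computed for every probe set as the selenium-minus-control difference in females minus the same difference in males, on log2 expression values. All 15 arrays of the series entered it, each made from the whole brain of 1 fish, and 15502 of the 15617 probe sets were tested, the other 115 being controls of the array's maker. The groups were 3 females and 4 males on a control diet with 1.4 ppm selenium, and 4 females and 4 males on a diet brought to 5.6 ppm with sodium selenite, fed for 14 days. All fish were 1 year old, sexually mature and of the strain labelled Transgenic Mosaic 1, in control and selenium groups alike. The design text speaks of an equal sex ratio within 8 fish per diet, so 1 further control female was not analysed here.

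Selenium is built into selenoproteins as the amino acid selenocysteine. Many of these proteins, such as the glutathione peroxidases and thioredoxin reductases, use it to reduce peroxides and oxidised proteins, and the brain is known to hold on to selenium when supply is short. Female and male brains differ in sex steroid signalling, and the fish brain makes much oestrogen locally in its radial glia, the progenitor-like glial cells that line the ventricles.

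A response opposed between the sexes did not reach the threshold of the test for any single probe set. With limma and Benjamini-Hochberg adjustment, 0 of 15502 probe sets (percent called 0) passed an adjusted p under 0.05 for the difference between the sexes, and the smallest adjusted p was 0.442. At an unadjusted p under 0.05, 1298 probe sets (8.37%) were counted, 676 (4.36%) with the female difference above the male and 622 (4.01%) with it below. An ordinary fit with no moderation of the variances also called 0. The diet effect itself gave 0 calls in females (smallest adjusted p 0.292, 8.27% at an unadjusted p under 0.05) and 0 calls in males (smallest adjusted p 0.478, 5.23%). Values below therefore describe these fish, and no gene is said to have risen or fallen. A typical probe set had a residual SD of 0.169 and a 95% confidence half-width of 0.370 log2 units for the difference between the sexes. In simulated data of the same design, a true difference of 1 log2 unit between the sexes was found for 70% of the probe sets given it. For a difference of 0.5 the share was 7.5%. False calls numbered 8 beside 140 true ones at 1 log2 unit and 2 beside 15 at 0.5. The simulated noise was independent between probe sets and held no variation shared across an array, so these rates need not hold for these fish. P-values rest on the spread between the fish of a group.

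Array facts touch several results. Array medians lay between 7.24 and 7.35, and the median of the female selenium arrays was lower than that of their controls (mean 7.27 against 7.33), so centring the arrays adds 0.061 to every female difference, takes 0.018 from every male one and adds 0.079 to the difference between the sexes. The 3′ minus 5′ signal of gapdh, which grows as RNA is degraded, ranged from 0.97 to 1.61 in control females, 1.33 to 1.84 in selenium females, 0.89 to 1.26 in control males and 0.66 to 1.17 in selenium males. Its group mean was thus higher on selenium in females (1.59 against 1.19) and lower in males (0.93 against 1.04), the same opposed form as the comparison, and its part in the results was not tested beyond a fit with it as a covariate. The 3′ minus 5′ signal of acta1, a skeletal muscle actin gene, was not opposed in its group means. They were higher on selenium in females (4.31 against 3.35) and in males (5.19 against 3.71). The selenium males read 8.18, 4.65, 4.85 and 3.09, against 3.56 to 3.86 in control males. Selenium male 1, the highest, was also the highest fish for muscle genes. How far acta1 reflects muscle and not RNA quality was not tested. A list of 50 muscle genes had a mean level of 8.03, 6.35, 6.69 and 5.896 in the 4 selenium males, against 5.63 to 6.19 in all other fish. Within females it was 5.63 to 5.83 on control and 5.94 to 6.19 on selenium, without overlap. The mean of 48 retina and lens genes was 6.92 and 6.55 in selenium males 2 and 4 and 5.88 in control female 2, against 4.64 to 5.64 in the rest. Defining neuronal genes were bright everywhere, with a list mean of 11.22 to 11.47 in every fish. In whole tissue, fewer cells of a type and less RNA per cell cannot be told apart.

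At a threshold of 0.25 log2 units, differences of opposite sign were about as common as differences of the same sign, but this depended on the threshold. At 0.15 there were 1129 in opposite directions and 822 in the same direction, and at 0.5 there were 39 and 69. At 0.25 log2 units or more in each sex, 310 probe sets (2%) stood in opposite directions and 327 (2.11%) in the same direction, 177 (1.14%) higher and 150 (0.968%) lower in both. Among the opposed, 135 (0.871%) were higher in selenium females and lower in selenium males, and 175 (1.13%) were the reverse, so 43.5% were of the first kind. With the arrays centred on their medians the counts were 216 and 105, which is 67.3% of the first kind. With quantile normalization applied again they were 144 and 155 (48.2%), so the balance of the 2 directions depends on which scaling is used. The opposed probe sets with 1 symbol named 198 genes, 83 of the first kind and 115 of the second. At the edge of the threshold, taldo1 was just inside with 0.26 in females and -0.25 in males, and ppp4r1 was just outside with 0.25 and -0.26. Over all probe sets the female and male differences had a Pearson r of 0.041 and a Spearman rho of -0.12, a description over features that share arrays.

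**Figure D1:**
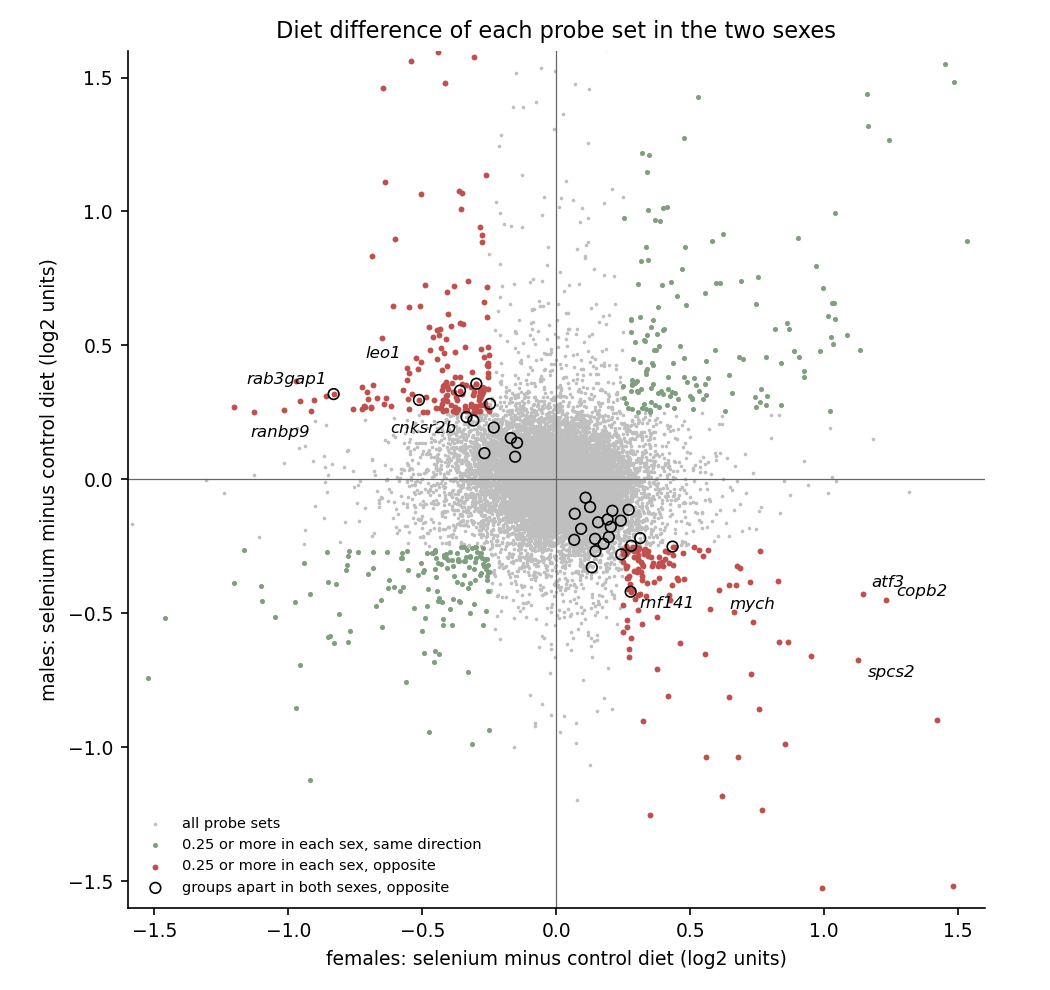
Selenium-minus-control difference of each probe set in females (x axis) and males (y axis), both in log2 units. Red points stand 0.25 or more in opposite directions (310 probe sets), green points 0.25 or more in the same direction (327), and circles mark the 33 probe sets whose diet groups did not overlap in either sex and lay in opposite directions. Over all probe sets the Pearson r was 0.041 and the Spearman rho -0.12, and 72 probe sets lie outside the axes.

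A stricter description asks that every selenium fish lie above every control fish in one sex and below in the other. This held for 33 probe sets (0.213%), 21 (0.135%) higher in selenium females and lower in selenium males and 12 (0.0774%) the reverse, against 6 (0.0387%) apart in the same direction in both sexes. In single sexes the diet groups were apart for 1078 probe sets (6.95%) in females and 636 (4.1%) in males. Of the 33, 23 carried 1 gene symbol. With centred arrays the count was 53, of which 52 were higher in selenium females and 1 lower. With quantile normalization applied again the count was 33, of which 22 were higher in selenium females and 11 lower. The direction of this set too depends on which scaling is used. It was 71 without selenium male 1 and 106 without selenium males 2 and 4, and smaller groups part more easily by construction.

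In what follows, levels are log2 expression values of single fish in the order of their numbers, and a pair of values joined by "and" gives the selenium-minus-control difference in females and then in males, in log2 units with its SE. Genes higher in selenium females and lower in selenium males were led, by the smallest p, by mych, rnf141 and pabpn1l. The gene mych encodes a fish member of the Myc family of growth-promoting transcription factors. In females mych stood at 4.90, 4.65 and 4.73 on the control diet and at 5.50, 5.34, 5.48 and 5.16 on selenium. Control males read 5.49, 5.03, 4.91 and 5.26 and selenium males 5.05, 4.68, 4.80 and 4.50. Every selenium female lay above every control female, while 1 selenium male lay within the range of the control males. The mych difference was 0.61 ± 0.15 (SE) in females, -0.41 ± 0.14 in males and 1.02 ± 0.20 between the sexes (n = 3, 4, 4 and 4, limma adjusted p = 0.442).

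The gene rnf141 encodes a RING finger protein, a class that includes many ubiquitin ligases. Control females had rnf141 values of 4.01, 3.78 and 4.01, and selenium females 4.26, 4.14, 4.38 and 4.06. Control males had 4.29, 4.29, 4.60 and 4.49, and selenium males 3.99, 4.01, 3.89 and 4.09. The diet groups did not overlap in either sex and the control males were the highest of the 4 groups. The differences were 0.28 ± 0.10 in females and -0.42 ± 0.095 in males, 0.70 ± 0.14 between the sexes (adjusted p = 0.442).

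The gene pabpn1l encodes a nuclear-type poly(A)-binding protein known from eggs and early embryos. Its level was 4.26, 3.98 and 4.40 in control females and 4.66, 4.54, 4.69 and 4.70 in selenium females. The males read 4.64, 4.31, 4.27 and 4.59 on control and 4.16, 4.27, 4.25 and 4.13 on selenium. Both sexes were apart, with differences of 0.43 ± 0.11 in females and -0.25 ± 0.10 in males. The closest control and selenium males both read 4.27, so their gap was smaller than the rounding. All 3 leading genes were dim on the array, with means over the 15 fish of 5.03 for mych, 4.15 for rnf141 and 4.39 for pabpn1l.

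The other genes named in this direction were of mixed function. The small GTPase gene rab10, which acts in membrane delivery to the cell surface, read 10.63, 10.66 and 10.65 in control females and 10.91, 10.97, 10.65 and 11.19 in selenium females. In control males rab10 read 10.85, 10.80, 10.68 and 10.59, and in selenium males 10.51, 10.31, 10.49 and 10.56. The males were apart and the females overlapped through selenium female 3, with differences of 0.29 ± 0.11 in females and -0.26 ± 0.10 in males. The coat protein gene copb2, a subunit of the COPI coat of Golgi vesicles, had differences of 1.23 ± 0.34 and -0.45 ± 0.32. It was apart in females alone, and its other 2 probe sets gave -0.020 and 0.062 in females and -0.31 and -0.13 in males, so the large female value rests on 1 of 3 probe sets. For spcs2, a subunit of the signal peptidase complex that trims secreted proteins, the differences were 1.13 ± 0.38 and -0.68 ± 0.35.

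The stress-induced transcription factor gene atf3 had a wide span. Control females read 7.55, 7.22 and 7.74 and selenium females 8.17, 8.01, 8.72 and 9.69. Control males read 7.29, 7.68, 7.86 and 7.26 and selenium males 7.26, 6.90, 7.48 and 6.73. The females were apart and the males overlapped, with 1.15 ± 0.33, -0.43 ± 0.30 and 1.57 ± 0.45 between the sexes. The other 5 genes named in this direction were tsn, for the RNA- and DNA-binding protein translin (0.30 and -0.43), ptp4a3b, for a prenylated phosphatase (0.26 and -0.27), and spsb4a, for an adaptor of ubiquitin ligases (0.31 and -0.33). They also included plp2a, for a membrane proteolipid (0.33 and -0.32), and pacc1, for an acid-activated chloride channel (0.29 and -0.45). The other 2 probe sets of ptp4a3b had negative values in both sexes.

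**Figure D2:**
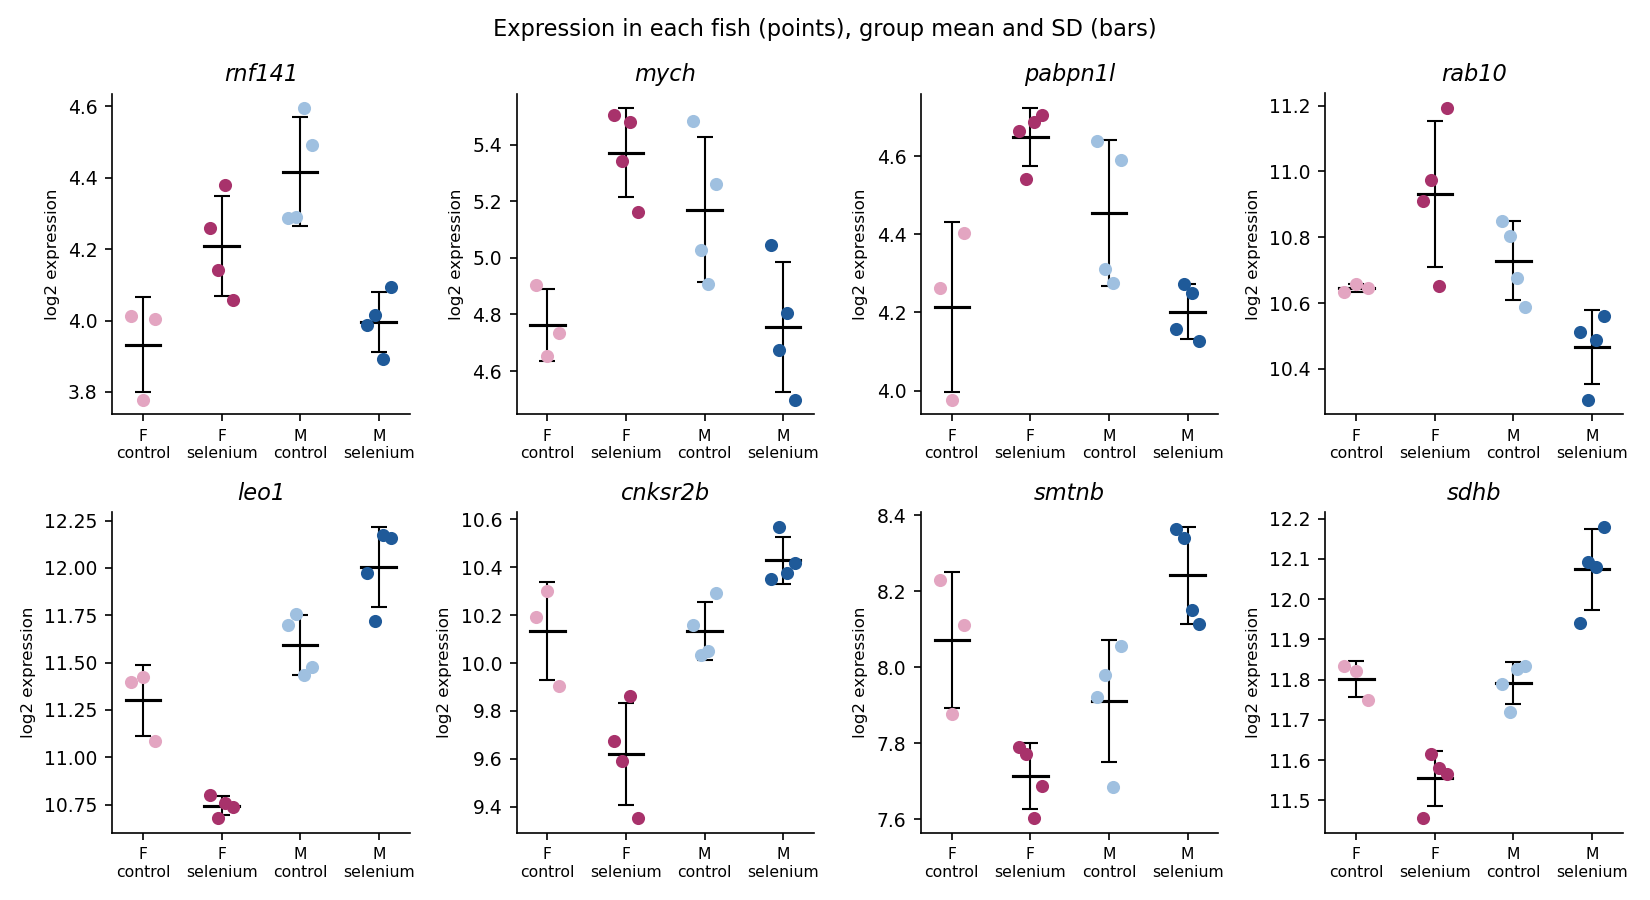
Log2 expression of 8 genes in each fish (points) of the 4 groups, with the group mean and SD as bars; the y axes differ between panels. In the top row the mean of selenium females lies above and that of selenium males below the mean of their controls. In the bottom row the order of the means is reversed. For rnf141, pabpn1l, cnksr2b, smtnb and sdhb the diet groups do not overlap in either sex.

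Genes lower in selenium females and higher in selenium males were led by leo1, cnksr2b and smtnb. The gene leo1 encodes a subunit of the PAF1 complex, which travels with RNA polymerase II. Control females read 11.40, 11.42 and 11.09 and selenium females 10.80, 10.68, 10.76 and 10.74 for leo1, so the females were well apart. Control males read 11.70, 11.76, 11.43 and 11.48 and selenium males 11.98, 11.72, 12.17 and 12.16, and only selenium male 2, the lowest, lay within the control range. The differences were -0.56 ± 0.12 in females and 0.42 ± 0.11 in males, -0.97 ± 0.17 between the sexes (adjusted p = 0.442). A further leo1 probe set did not share this: it gave 0.023 ± 0.14 in females and 0.091 ± 0.13 in males.

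The gene cnksr2b encodes a scaffold of Ras signalling whose mammalian counterpart sits at synapses. Control females read 10.19, 10.30 and 9.91 and selenium females 9.67, 9.59, 9.86 and 9.35. For males, cnksr2b was 10.16, 10.03, 10.05 and 10.29 on control and 10.35, 10.57, 10.38 and 10.42 on selenium. Neither sex overlapped between the diets, and the 2 control groups had nearly the same mean, 10.13 ± 0.20 in females and 10.13 ± 0.12 (SD) in males. The differences were -0.51 ± 0.12 and 0.30 ± 0.11. The smoothelin gene smtnb, for an actin-binding protein known from smooth muscle, had the same form. It read 8.23, 7.88 and 8.11 in control females, 7.79, 7.77, 7.60 and 7.69 in selenium females, 7.92, 7.98, 7.68 and 8.06 in control males and 8.36, 8.34, 8.15 and 8.11 in selenium males. The smtnb differences were -0.36 ± 0.11 and 0.33 ± 0.10, again with no overlap in either sex.

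Both subunits of the complex that regulates the synaptic vesicle GTPase Rab3 had the same signs. The catalytic subunit gene rab3gap1 read 7.39, 6.79 and 7.25 in control females and 5.96, 6.73, 5.97 and 6.09 in selenium females. In males, rab3gap1 read 6.80, 6.83, 7.36 and 6.63 on control and 7.33, 6.95, 7.07 and 7.44 on selenium. The females were apart and the males overlapped, with differences of -0.96 ± 0.22 and 0.29 ± 0.20. The other subunit gene, rab3gap2, had -0.43 ± 0.14 and 0.19 ± 0.13, with overlap in both sexes. The scaffold gene ranbp9, part of a ubiquitin ligase complex, had -1.13 ± 0.24 and 0.25 ± 0.22, and its other probe set gave -0.10 ± 0.097 and 0.015 ± 0.090.

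The remaining genes of this direction were of mixed function. The adhesion gene jam2a had -0.37 ± 0.10 in females and 0.26 ± 0.096 in males. The homeobox gene irx4b had -0.38 and 0.48, and the T-box factor gene tbx15 -0.34 and 0.35, with a further tbx15 probe set at 0.12 and -0.022. The cargo receptor gene mcfd2, which acts between endoplasmic reticulum and Golgi, had -0.71 and 0.27. The dystrophin gene dmd had -0.28 and 0.28, and its other probe set had the same signs, -0.075 and 0.17. The C-type natriuretic peptide gene nppc had -0.41 and 0.31, and zgc:162239 had -0.52 and 0.45. Over the 24 genes named in both directions, adjusted p ran from 0.442 to 0.501. Their diet groups were apart in both sexes for 4, in females alone for 14, in males alone for 5 and in neither for 1 (tsn). These genes were picked by the size and p of the same values, so many such gaps follow from the choice. Over all probe sets the groups were apart in opposite directions in both sexes for 0.213%, in females for 6.95% and in males for 4.1%.

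Among the other genes whose groups were apart in both sexes, named here after their values were seen, 5 stood lower in selenium females and higher in selenium males. The gene sdhb encodes the iron-sulphur subunit of succinate dehydrogenase, shared by the citric acid cycle and respiratory complex II. Control females read 11.83, 11.82 and 11.75 and selenium females 11.46, 11.62, 11.58 and 11.57 for sdhb. Control males read 11.79, 11.72, 11.83 and 11.84 and selenium males 11.94, 12.09, 12.08 and 12.18. The 2 control groups lay at nearly the same mean, 11.80 ± 0.05 and 11.79 ± 0.05 (SD), with the selenium groups below it in females (-0.25 ± 0.071) and above it in males (0.28 ± 0.066), a difference of -0.53 ± 0.097 (adjusted p = 0.442). The oxidative stress sensor gene park7 had -0.15 ± 0.064 and 0.14 ± 0.059, and the peroxiredoxin gene prdx5 -0.15 ± 0.075 and 0.084 ± 0.069. The sodium pump subunit gene atp1b1b had -0.27 ± 0.070 and 0.098 ± 0.064, and asl, for the urea cycle enzyme argininosuccinate lyase, -0.31 ± 0.10 and 0.22 ± 0.094.

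The remaining apart genes had the opposite order. The chromatin remodeller subunit gene arid2 had 0.20 ± 0.065 in females and -0.22 ± 0.060 in males on 1 probe set and 0.12 ± 0.082 and -0.19 ± 0.076 on the brighter one. The nuclear import receptor gene kpna3 had 0.13 and -0.33, with its other probe set negative in both sexes. The arginine methyltransferase gene prmt1 had 0.13 and -0.10, the nucleosome-binding gene hmgn3 0.11 and -0.069, the DNA methyltransferase gene dnmt3bb.2 0.27 and -0.11 and the transcription factor gene gata6 0.24 and -0.15. Outside the nucleus, the peroxisome import gene pex13 had 0.24 and -0.28, the ubiquitin-conjugating gene ube2e2 0.21 and -0.12, and the chaperone gene dnajc18 0.19 and -0.15. The transmembrane thioredoxin gene tmx2b had 0.28 and -0.25 on the probe set that was apart, and none of its other 3 probe sets had these signs in both sexes. The rest were bzw1a (0.093 and -0.19), fam167aa (0.15 and -0.27), the odorant receptor gene or42c5 (0.18 and -0.24) and si:dkey-260j18.2 (0.15 and -0.22, with neither of its other 2 probe sets sharing both signs).

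Gene lists gave a view by function. Over all 8793 named genes, each by its brightest probe set, 29.1% stood higher in selenium females and lower in selenium males, 27.2% were the reverse, and 8.52% had an unadjusted p under 0.05 for the difference between the sexes. In females 50.9% stood higher on selenium, and in males 49.1%. Their medians were 0.0034 in females, -0.0035 in males and 0.0064 between the sexes. With centred arrays 3562 of the 8793 stood higher in selenium females and lower in selenium males, and 1518 were the reverse. Their median between the sexes was then 0.086. Counts of a list with centred arrays are to be read against these. No member of any of the 50 lists passed the adjusted test. Centring adds the same 0.061 to every list and to all named genes in females, so a list's distance from the median of all named genes stays as it is.

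Of 5 mitochondrial lists, 4 had more members lower in selenium females and higher in selenium males than the reverse, and each share is to be read against the 27.2% of all named genes. The fifth, mitochondrial import and carriers, had 14 of 46 genes in each order, with a median of 0.021 in females. In respiratory complex I, which feeds electrons from NADH into the chain, 20 of 37 genes (54.1%) had this order and 3 the reverse. The medians were -0.036 in females, 0.090 in males and -0.12 between the sexes. With centred arrays the female median was 0.025, on the other side of 0, with 13 genes in this order and 6 in the reverse. With quantile normalization applied again the female median was -0.027, and the counts were 21 and 2. An unadjusted p under 0.05 was found for 9 of the 37 (24.3%), all with the female difference below the male. The assembly factor gene ndufaf2 had -0.26 ± 0.093 and 0.11 ± 0.086, the subunit gene ndufa12 -0.19 ± 0.076 and 0.11 ± 0.070, and ndufs1, for a core subunit, -0.11 ± 0.076 and 0.17 ± 0.070. The assembly factor gene ndufaf5 had -0.13 ± 0.076 and 0.15 ± 0.071.

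By fish, the mean deviation of the complex I genes from their 15-fish means was 0.032, -0.076 and 0.029 in control females and -0.068, -0.13, -0.017 and 0.034 in selenium females. It was -0.033, 0.012, 0.035 and -0.096 in control males and 0.0004, 0.069, 0.11 and 0.092 in selenium males. The groups overlapped in both sexes, with selenium males 2 to 4 above every other fish. Selenium male 1, the fish with the highest muscle list, was the lowest of its group.

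In complexes II to V, the list that holds sdhb, 33 of 53 genes (62.3%) were lower in selenium females and higher in selenium males and 1 was the reverse. Medians were -0.046 in females, 0.060 in males and -0.10 between the sexes. With centred arrays the female median was 0.015, again across 0, the counts were 17 and 4, and the median between the sexes was -0.020. With quantile normalization applied again the female median was -0.043, the counts were 33 and 1, and the median between the sexes was -0.090. The Rieske protein gene uqcrfs1 of complex III had -0.25 ± 0.085 and 0.073 ± 0.079. The complex IV subunit gene cox4i2 had -0.17 ± 0.075 and 0.077 ± 0.069, and the complex V assembly factor gene atpaf1 -0.074 ± 0.077 and 0.18 ± 0.071. An unadjusted p under 0.05 was found for 7 of the 53 genes (13.2%), all with the female difference below the male.

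Mitochondrial ribosomal proteins, which translate the genes of the mitochondrial genome, had 30 of 59 members lower in selenium females and higher in selenium males and 2 the reverse. The medians were -0.025 in females, 0.096 in males and -0.11 between the sexes, and -0.18 between the sexes without selenium male 1. With centred arrays the female median was 0.036, the counts were 17 and 7, and the median between the sexes was -0.033. With quantile normalization applied again the female median was -0.012, the counts were 29 and 3, and the median between the sexes was -0.12. With the gapdh covariate the counts were 20 and 4 and the median between the sexes was -0.046. The members of smallest p were mrpl37 (-0.054 and 0.25), mrps33 (-0.24 and 0.17), mrpl24 (-0.31 and 0.16) and mrpl41 (0.015 and 0.43). Only 4 of the 59 had an unadjusted p under 0.05 (6.78%), below the share of all named genes.

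In the citric acid cycle, 12 of 23 genes had the female-lower, male-higher order and 3 the reverse, with medians of -0.018 in females, 0.068 in males and -0.095 between the sexes. With centred arrays the counts were 7 and 4, the female median was 0.043 and the median between the sexes -0.015. With quantile normalization applied again the counts were 9 and 3, the female median was 0.015 and the median between the sexes -0.085. The isocitrate dehydrogenase subunit gene idh3b led this list. Control females read 11.05, 10.997 and 10.89 and selenium females 10.67, 10.67, 10.80 and 10.63. In males, idh3b read 10.92, 10.82, 10.94 and 10.82 on control and 10.90, 11.03, 11.10 and 11.07 on selenium. The females were apart and the males overlapped, with -0.29 ± 0.073, 0.15 ± 0.068 and -0.44 ± 0.10 between the sexes (adjusted p = 0.444). A dimmer idh3b probe set had the same signs, -1.02 ± 0.29 and 0.061 ± 0.27. The succinyl-CoA ligase gene suclg1 had -0.13 and 0.19, the pyruvate dehydrogenase subunit gene dlat -0.30 and 0.13, and the malate dehydrogenase gene mdh2 -0.096 and 0.092. The oxoglutarate carrier gene slc25a11 had -0.0082 ± 0.081 and 0.035 ± 0.075 on its brighter probe set, whose difference between the sexes changes sign with centring, and -0.23 ± 0.13 and 0.17 ± 0.12 on the dimmer one.

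**Figure D3:**
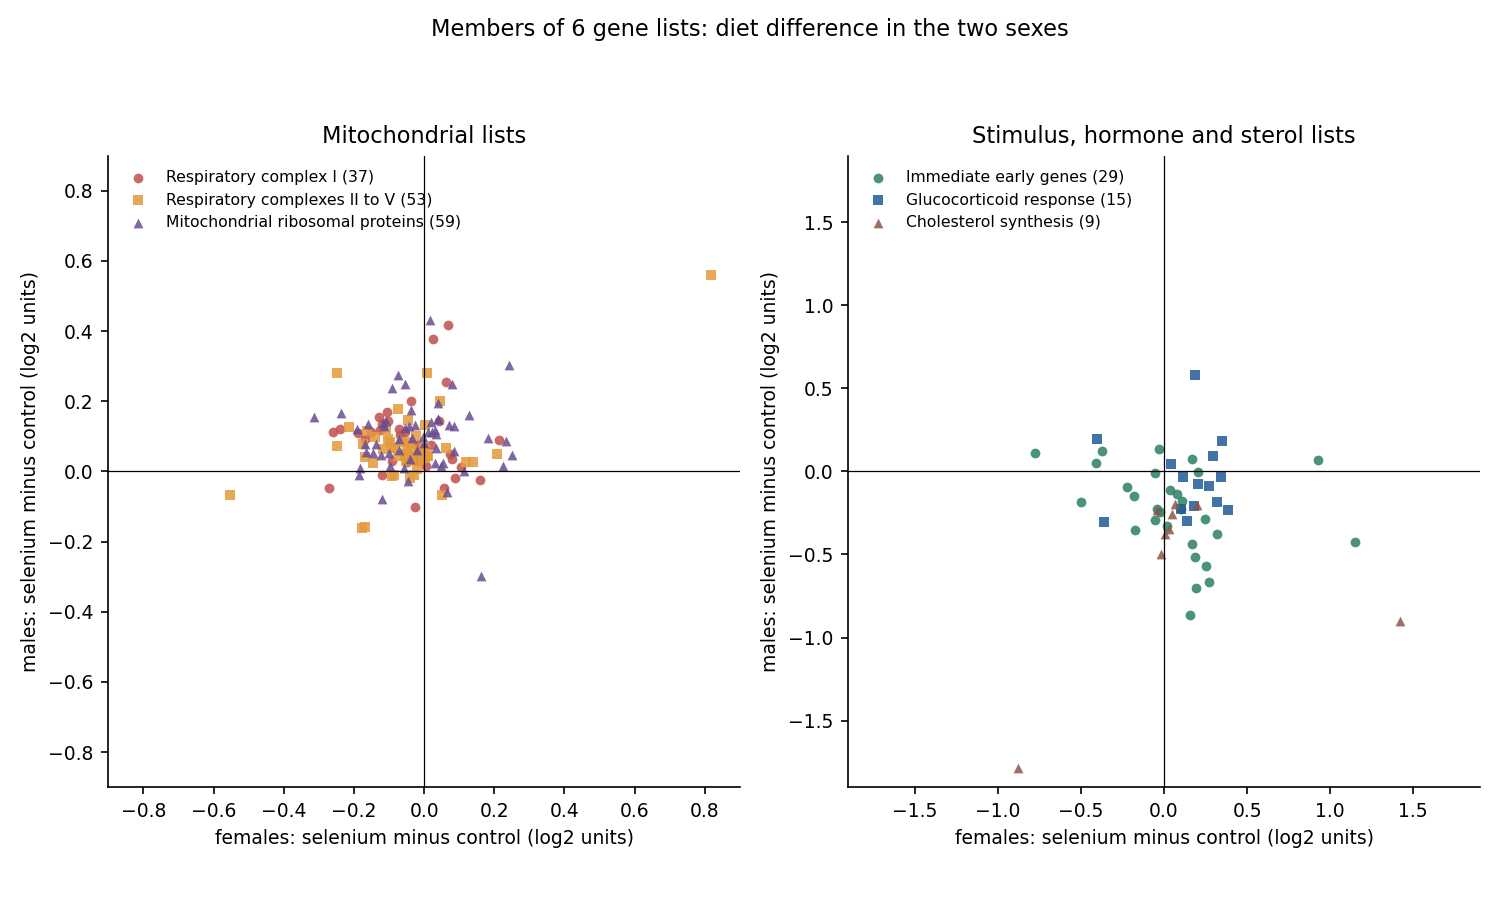
Selenium-minus-control difference of each member of 6 gene lists in females (x axis) and males (y axis), in log2 units; the axes of the panels differ. Most members of the 3 mitochondrial lists lie above 0 in males, and more of them left of 0 than right in females. Immediate early, glucocorticoid and cholesterol genes lie mostly below 0 in males, and more of them right of 0 than left in females.

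Cytosolic ribosomal proteins had the same order in 43 of 72 members, with medians of only -0.026 in females and 0.035 in males. The sign of their median between the sexes depended on the scaling. With centred arrays the counts were 13 in this order and 18 in the reverse, and that median went from -0.064 to 0.015. With quantile normalization applied again the counts were 32 and 7, and it was -0.038. The same median over all named genes was 0.0064, and 0.086 with centred arrays, so the list lay below it under both scalings. The members of smallest p did not share a direction: rps16 had 0.19 in females and -0.15 in males, while rpl28 (-0.097 and 0.10), rps3a (-0.13 and 0.077) and rps10 (-0.12 and 0.10) were the reverse.

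Antioxidant and glutathione genes, which detoxify peroxides and conjugate foreign compounds, had 14 of 26 members lower in selenium females and higher in selenium males and 5 the reverse. Their medians were -0.070 in females, 0.048 in males and -0.14 between the sexes. The female median was close to 0 with centred arrays (-0.0088) and was -0.068 with quantile normalization applied again. The median between the sexes was -0.088 without selenium female 2. The glutathione transferase gene gstp1.2 had -0.28 ± 0.090 and 0.056 ± 0.083, and gstt1b of the same family -0.16 ± 0.12 and 0.22 ± 0.11. The mitochondrial glutaredoxin gene glrx5, needed for iron-sulphur clusters, had -0.11 ± 0.10 and 0.24 ± 0.093. By fish the list mean deviated by 0.067, 0.025 and 0.021 in control females and by -0.087, -0.078, -0.023 and 0.061 in selenium females. In control males it was -0.035, -0.0058, -0.0034 and -0.039, and in selenium males -0.015, 0.062, 0.0047 and 0.046. The groups overlapped in both sexes.

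The selenoproteins as a list did not stand in opposite directions. Of 24 measured members, 6 were lower in selenium females and higher in selenium males and 2 were the reverse, with medians of 0.0056 and 0.036, and the median between the sexes went from -0.019 to 0.061 with centred arrays. The glutathione peroxidase gene gpx1a stood out among them. Control females read 11.39, 11.17 and 10.85 and selenium females 10.60, 10.84, 10.90 and 10.81. Control males read 10.85, 10.87, 10.94 and 10.88 and selenium males 10.93, 11.11, 11.10 and 11.01. Both sexes overlapped, with -0.34 ± 0.11, 0.15 ± 0.10 and -0.49 ± 0.15 between the sexes (adjusted p = 0.501). The calcium-handling selenoprotein gene selenon had -0.23 ± 0.099 and 0.10 ± 0.092, and gpx4a, for the peroxidase of membrane lipids, -0.13 ± 0.079 and 0.078 ± 0.073. The endoplasmic reticulum selenoprotein gene selenom had -0.25 ± 0.15 and 0.066 ± 0.13.

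Other selenoprotein genes were near 0 or of 1 sign. For selenoo1, of a mitochondrial AMP-transferring enzyme, the values were -0.33 in females and -0.0042 in males, and its other probe set had 0.087 in females. The selenium carrier genes selenop and selenop2 had -0.042 ± 0.12 and 0.0097 ± 0.097 in females and 0.11 ± 0.11 and -0.091 ± 0.090 in males. The thioredoxin reductase gene txnrd3 had -0.098 ± 0.096 and -0.013 ± 0.089. For selenow1 the values were -0.21 ± 0.068 and -0.032 ± 0.063, and for gpx4b 0.17 ± 0.18 and 0.43 ± 0.16, each of 1 sign in both sexes. The methionine sulphoxide reductase gene msrb1b had 0.18 ± 0.11 and 0.0016 ± 0.11, and selenot2 0.19 ± 0.11 and 0.016 ± 0.10, with a dimmer selenot2 probe set negative in both sexes. The other 12 selenoprotein genes lay between -0.14 and 0.18 in females, between -0.16 and 0.11 in males and between -0.13 and 0.13 for the difference between the sexes, with a smallest unadjusted p of 0.594.

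The opposite order, higher in selenium females and lower in selenium males, was the more common one among immediate early and glucocorticoid response genes. Other hormone lists were more evenly divided: of 11 thyroid hormone genes, 4 had this order and 3 the reverse. Immediate early genes are switched on within minutes by neuronal activity or stress. Of 29 measured, 15 had this order and 4 the reverse, with medians of 0.076 in females, -0.22 in males and 0.22 between the sexes, and 0.36 between the sexes without control male 2. An unadjusted p under 0.05 was found for 9 of 29 (31%), 6 with the female difference above the male and 3 below. The neuronal activity gene npas4a had 0.15 ± 0.26 and -0.87 ± 0.24. Against the list's order, fosl1b, a partner in the AP-1 factor, had -0.78 ± 0.16 and 0.11 ± 0.15, and the Krüppel-like factor gene klf2b -0.37 ± 0.13 and 0.12 ± 0.12.

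Control males had the highest group mean of this list. By fish the immediate early genes deviated from their means by -0.078, -0.12 and -0.11 in control females and -0.13, -0.15, 0.0026 and 0.10 in selenium females. Control males had 0.15, -0.068, 0.45 and 0.17 and selenium males 0.11, -0.0012, -0.16 and -0.19. Control male 3 was the highest fish of all, the 3 control females were all low, and the diets overlapped in both sexes. For npas4a, control males read 10.43, 9.95, 10.96 and 10.70 and selenium males 9.97, 9.94, 9.41 and 9.26.

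The glucocorticoid response list holds genes induced by cortisol, the main stress hormone of fish, together with the receptor gene nr3c1. Of 15 genes, 9 were higher in selenium females and lower in selenium males and 1 was the reverse, with medians of 0.18, -0.079 and 0.28. With the gapdh 3′ minus 5′ difference as a covariate the median between the sexes was 0.071, and without control male 4 it was 0.16. The leucine zipper gene tsc22d3, a mediator of glucocorticoid action, read 11.73, 11.61 and 11.998 in control females and 11.88, 11.91, 11.98 and 11.91 in selenium females. In males tsc22d3 read 11.90, 11.81, 11.82 and 11.995 on control and 11.81, 11.59, 11.43 and 11.52 on selenium. The males were apart and the females overlapped, with 0.14 ± 0.10 and -0.30 ± 0.095. The closest control and selenium males both read 11.81, so their gap was smaller than the rounding. The growth inhibitor gene ddit4 had 0.20 ± 0.087 and -0.079 ± 0.080, the receptor gene nr3c1 itself 0.18 ± 0.14 and -0.21 ± 0.13, and the kinase gene sgk1 0.12 ± 0.072 and -0.035 ± 0.067.

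The list means by fish were wide for glucocorticoid genes, with overlap in both sexes. Control females deviated by -0.24, -0.17 and 0.21 and selenium females by 0.24, 0.081, 0.17 and -0.17. Control males deviated by -0.21, -0.041, 0.0094 and 0.26 and selenium males by 0.058, 0.19, -0.37 and -0.017. The other 2 probe sets of nr3c1 were negative in both sexes.

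Cholesterol synthesis genes, which the brain uses to make its own cholesterol, had 6 of 9 members higher in selenium females and lower in selenium males and 0 the reverse. The medians were 0.028 in females and -0.35 in males. Of the 9, 0 had an unadjusted p under 0.05 for the difference between the sexes. The median between the sexes, 0.38, was 0.24 without control female 1 and 0.63 without control female 3. Without selenium males 2 and 4 it was 0.26, with a male median of -0.14 and 5 of the 9 genes in the order. With muscle and retina covariates it was 0.21, with 4 of the 9 genes in the order. By fish, control females deviated by 0.23, 0.19 and 0.19, selenium females by 0.49, 0.36, 0.16 and 0.17, control males by -0.36, 0.18, 0.043 and 0.30 and selenium males by -0.29, -0.41, -0.37 and -0.90. Selenium male 4 was the lowest fish, and control male 1 lay within the range of the selenium males. With the gapdh covariate the female median was -0.20, the median between the sexes was 0.11 and 2 of the 9 genes had the order.

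The widest difference between the sexes in the cholesterol list was that of dhcr7, for the last reductase of the pathway, with 1.42 ± 0.80 in females and -0.90 ± 0.74 in males. Control females read 10.18, 9.92 and 7.74, and selenium females 10.82, 10.38, 10.78 and 10.83. Control males read 7.46, 10.23, 10.02 and 10.04, and selenium males 10.09, 7.32, 9.42 and 7.32. Control male 1 and control female 3 lay far below the rest of their groups. The selenium males that read 7.32 lay at about the same low level, and all other fish read 9.42 or more. The dhcr7 differences thus depend largely on which fish lay at the low level, and the cause of that level was not tested. The difference between the sexes, 2.32, was 2.98 without control male 1 and 1.55 without control female 3. The mevalonate kinase gene mvk had 0.0047 ± 0.17 and -0.38 ± 0.16 (a difference between the sexes of 0.38, and 0.14 without control female 1), the squalene synthase gene fdft1 0.047 ± 0.14 and -0.26 ± 0.13, and the sterol oxidase gene msmo1 -0.018 ± 0.25 and -0.50 ± 0.23. The difference between the sexes for fdft1 was at 0 with the gapdh covariate.

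Genes of protein folding in the endoplasmic reticulum had 12 of 28 members in the female-higher, male-lower order and 4 in the reverse, with medians of 0.070 and -0.035. The median between the sexes was 0.14, and 0.035 with the muscle and retina lists as covariates and 0.081 without control male 1. The co-chaperone gene dnajc3b had 0.27 ± 0.16 and -0.36 ± 0.14, and the stress factor gene atf4b 0.31 ± 0.096 and -0.0073 ± 0.089. The translocon gene sec61a1a had 0.091 ± 0.077 and -0.14 ± 0.071, with males apart and females overlapping. The secreted factor gene manf had 0.074 ± 0.13 and -0.25 ± 0.12, and its other probe set was -0.27 in females.

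Interferon response genes, the antiviral set, had 13 of 23 members in the same order and 2 in the reverse. Their medians were 0.13 in females, -0.075 in males and 0.21 between the sexes, but 0.022 between the sexes without selenium female 2. That fish had a mean deviation of 0.92, the highest of the list, against -0.30 to 0.44 in the other 14 fish. Only 1 of the 23 genes (4.35%) had an unadjusted p under 0.05, with the female difference below the male, against 8.52% of all named genes. The signalling inhibitor gene socs3a had 0.56 ± 0.71 and -1.04 ± 0.66. The interferon-induced gene ifi44f1 went against the list with -1.11 ± 0.28 in females and -0.22 ± 0.26 in males.

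Radial glia and astrocyte genes, like the cell cycle and DNA replication list, stood apart between the diets in males. Control males deviated by 0.024, -0.012, 0.0096 and 0.0045 and selenium males by -0.16, -0.13, -0.055 and -0.063, with no overlap. Control females deviated by -0.10, 0.13 and 0.14 and selenium females by 0.027, 0.075, -0.058 and 0.18, which overlapped throughout. Of 21 genes, 10 were higher in selenium females and lower in selenium males and 3 were the reverse, with medians of 0.027 and -0.12. The glutamine synthetase gene glula had 0.027 ± 0.074 and -0.18 ± 0.068, with males apart. The progenitor factor gene sox2 had 0.14 ± 0.13 and -0.27 ± 0.12, the regulator gene id3 0.12 ± 0.10 and -0.19 ± 0.097, and the aldolase gene aldoca 0.30 ± 0.23 and -0.34 ± 0.21. The other 2 sox2 probe sets had no more than their error in either sex. The part of the muscle and retina signal of selenium males in this result was not tested beyond the covariate fit, in which the median between the sexes was 0.092 against 0.13. With the gapdh covariate that median was 0.021, the female median -0.056 and the count 7 in place of 10. Cell cycle and DNA replication list means were 6.07 to 6.20 in control males and 5.97 to 6.05 in selenium males, also without overlap. No other of the 50 lists was apart in males. In females the list means were apart for tubulins and motors, epithelium and skeletal muscle alone, so such a gap was not particular to radial glia genes. Among single probe sets the share apart was 4.1% in males and 6.95% in females. Whether gaps in these few of 50 lists exceed what chance gives was not tested.

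**Figure D4:**
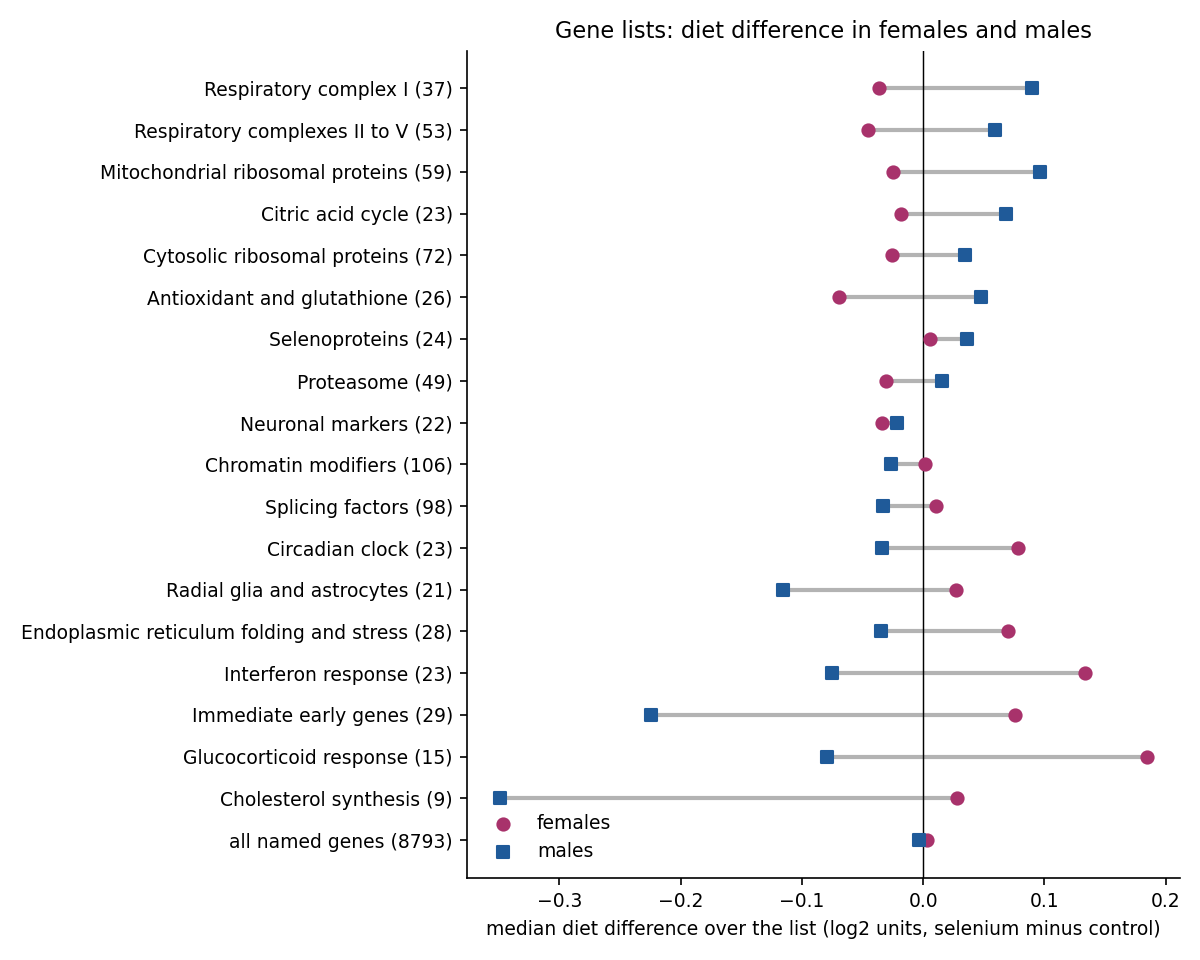
Median selenium-minus-control difference over the members of 18 gene lists and over all named genes, in females (circles) and males (squares), in log2 units; the number of genes stands in brackets. The 4 mitochondrial lists shown lie left of 0 in females and right of 0 in males, while immediate early, glucocorticoid and interferon genes are reversed. With centred arrays each female point lies 0.061 further right and each male point 0.018 further left.

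Nuclear gene lists had shares not far from the 29.1% of all named genes that stood higher in selenium females and lower in selenium males. Of 98 splicing factors, 36 (36.7%) had this order and 19 the reverse, with a median of 0.053 between the sexes, and 0.032 without selenium male 1. The counts were 56 and 13 with centred arrays and 23 and 25 with muscle and retina covariates. The RNA-binding genes rbm7 (0.40 ± 0.13 and -0.19 ± 0.12), hnrnpc (0.22 ± 0.14 and -0.39 ± 0.13), srsf4 (0.20 ± 0.11 and -0.22 ± 0.099) and u2af2b (0.19 ± 0.10 and -0.21 ± 0.096) were its members of smallest p, all in that order. Of 106 chromatin modifiers, 38 (35.8%) had it and 27 the reverse, and 53 and 21 with centred arrays. Over all 8793 named genes the counts with centred arrays were 3562 and 1518. The acetyltransferase gene crebbpa had 0.31 ± 0.092 and -0.12 ± 0.085, the elongation factor gene mllt1b 0.44 ± 0.11 and -0.060 ± 0.10, and the deacetylase gene hdac3 0.14 ± 0.10 and -0.25 ± 0.094. The other hdac3 probe set was negative in both sexes.

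Homeobox and zinc finger genes that pattern the brain showed both orders, 44 and 39 of 145. The eye and forebrain gene pax6a had 0.23 ± 0.10 and -0.22 ± 0.095, and the cerebellar genes zic4 and zic1 had 0.27 ± 0.12 and 0.17 ± 0.090 in females and -0.22 ± 0.11 and -0.17 ± 0.083 in males. The zic1 groups were apart in males alone. The circadian repressor gene cry1a had -0.48 ± 0.17 and 0.097 ± 0.16, nr1d2b -0.31 ± 0.089 and 0.0050 ± 0.082, and nfil3-5 0.38 ± 0.17 and -0.21 ± 0.16. Of 23 clock genes, 12 were higher in selenium females and lower in selenium males and 6 the reverse. Without selenium male 1 the counts were 8 and 5, and the male median went from -0.034 to 0.0040.

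Sulphur and one-carbon metabolism, the route by which methyl groups and selenium compounds are handled, had 9 of 22 members higher in selenium females and lower in selenium males and 7 the reverse. The regulatory subunit gene of methionine adenosyltransferase, mat2b, read 9.04, 9.09 and 8.93 in control females and 8.66, 8.73, 8.89 and 8.93 in selenium females. In males mat2b read 8.74, 8.78, 8.98 and 8.76 on control and 8.92, 9.01, 9.03 and 9.13 on selenium. The females were apart and the males overlapped, with -0.22 ± 0.088 and 0.21 ± 0.082, and the other mat2b probe set had the same signs. The closest control and selenium females both read 8.93, so their gap was smaller than the rounding. The folate enzyme gene mthfd1b had -0.28 ± 0.13 and 0.22 ± 0.12, while gnmt, for the methyltransferase that uses up excess S-adenosylmethionine, had the reverse signs, 0.22 ± 0.14 and -0.29 ± 0.13. The gene papss2b, for an enzyme that makes the sulphate donor, had -0.86 ± 0.16 in females and 0.046 ± 0.14 in males.

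Metal handling genes were divided. The zinc importer gene slc39a3 had -0.39 ± 0.13 and 0.17 ± 0.12, and the metal-responsive factor gene mtf1 had 0.19 ± 0.11 and -0.29 ± 0.11. The zinc transporter gene slc30a6 had 0.20 ± 0.10 and -0.11 ± 0.096. The iron exporter gene slc40a1 was negative in both sexes, at -0.41 ± 0.096 and -0.058 ± 0.089. At the synapse, the vesicle fusion gene vamp1a had -0.33 ± 0.086 and 0.056 ± 0.080, and the calcium sensor gene syt9a 0.30 ± 0.078 and -0.056 ± 0.073.

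Among sex steroid and reproductive genes the signs were mixed, 10 and 7 of 31. The gene gnrh3, for a gonadotropin-releasing hormone of the fish brain, read 7.99, 7.298 and 8.12 in control females and 6.52, 7.52, 6.42 and 7.33 in selenium females. In males gnrh3 read 6.62, 7.13, 6.70 and 7.16 on control and 7.03, 7.69, 6.51 and 7.19 on selenium. Both sexes overlapped, with -0.86 ± 0.31 and 0.20 ± 0.29, and a dimmer gnrh3 probe set had -0.46 ± 0.11 and 0.12 ± 0.10 with the females apart. The oestrogen receptor gene esr1 had 0.24 ± 0.13 and -0.15 ± 0.12, and hsd17b3, for an enzyme that makes testosterone, 0.19 ± 0.13 and -0.33 ± 0.12.

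Some large differences between the sexes came mostly from the males. Skeletal muscle genes had a median of -0.59 between the sexes, with medians of the same sign, 0.17 in females and 0.77 in males. The list means were apart in females too, 5.63 to 5.83 on control and 5.94 to 6.19 on selenium. Without selenium male 1 the median between the sexes was -0.011 and the male median 0.33. Without selenium males 2 and 4 they were -1.26 and 1.39. The muscle creatine kinase gene ckmt2a read 5.02, 5.35, 4.99 and 4.85 in control males and 8.78, 7.90, 6.64 and 6.39 in selenium males, with -0.039 ± 0.42 in females and 2.37 ± 0.39 in males. The muscle enolase gene eno3 had -0.060 ± 0.20 and 0.65 ± 0.18. Retina and lens genes had a median of -0.86 between the sexes, which was 0.027 without selenium males 2 and 4 and -0.31 without control female 2. Of 48, 21 (43.8%) were lower in selenium females and higher in selenium males and 4 the reverse, and 7 and 14 without selenium males 2 and 4. The red cone opsin gene opn1lw1 had -0.12 ± 0.84 and 2.11 ± 0.77. Of 17 pineal genes, 10 (58.8%) had this order and 2 the reverse, with a median of -0.98 between the sexes. Without selenium males 2 and 4 that median was 0.0049. The part of muscle or eye tissue carried with a brain was not tested beyond these values.

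**Figure D5:**
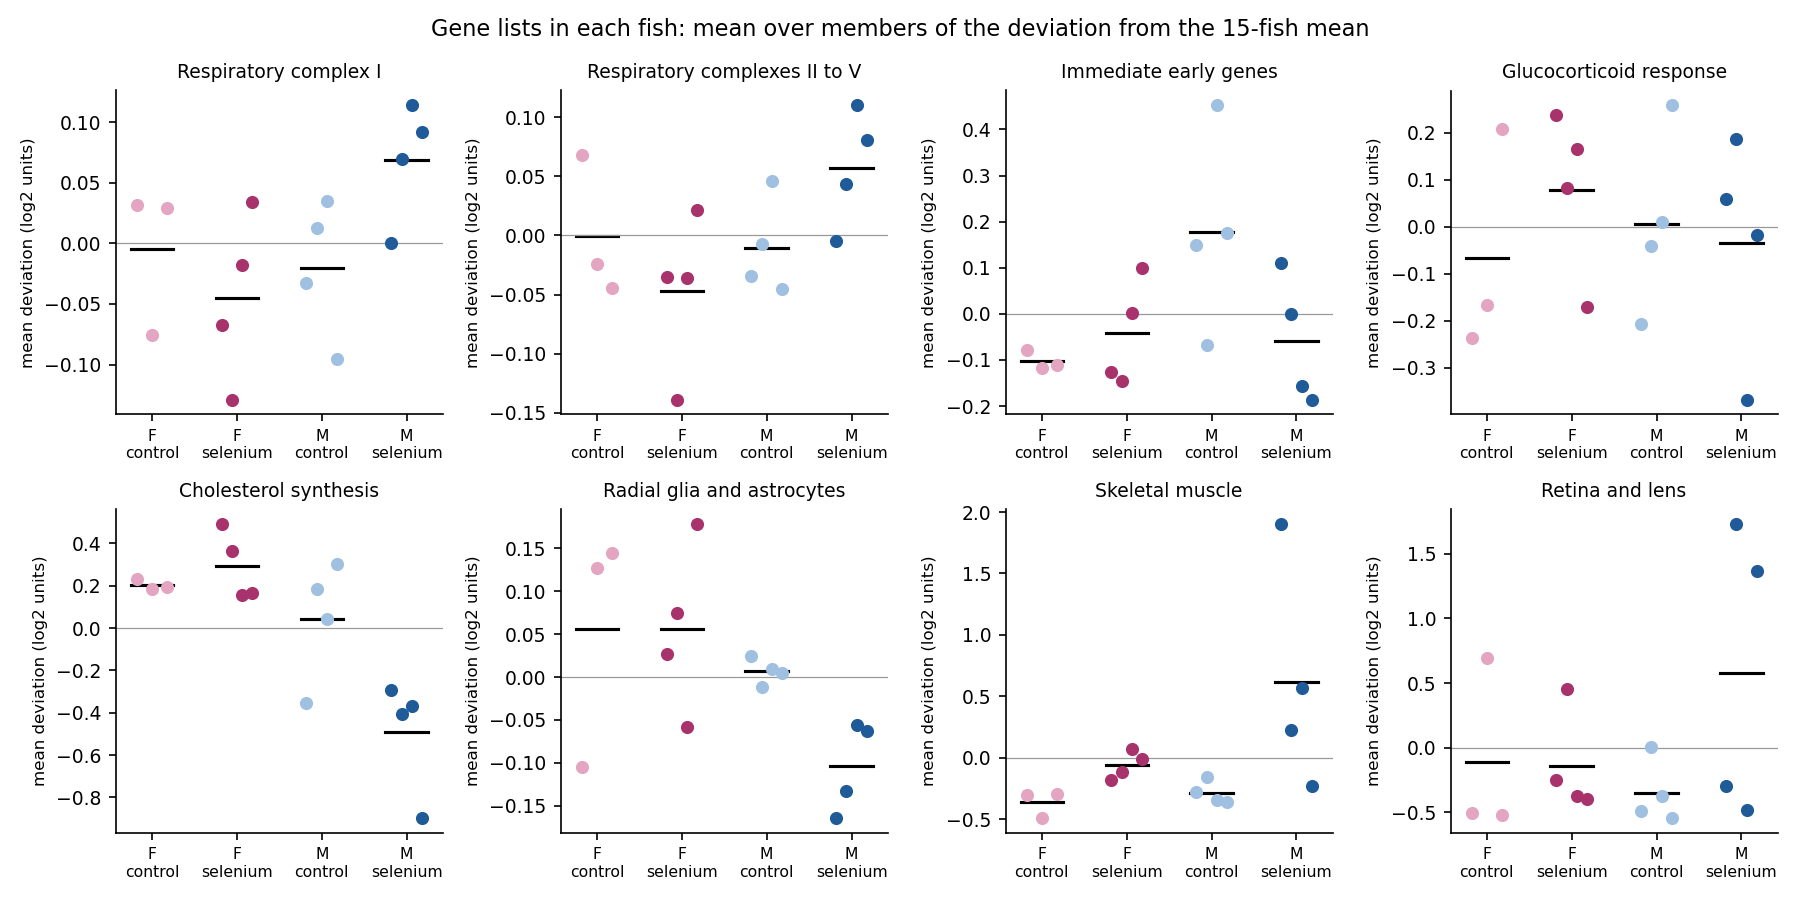
Mean deviation of the members of 8 gene lists from their 15-fish means in each fish (points), in log2 units, with the group mean as a bar; the y axes differ between panels. Selenium males lie high for the respiratory lists and low for cholesterol and radial glia genes, immediate early genes are highest in control males, and 1 selenium male in the muscle panel and 2 in the retina panel lie far above most other fish.

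Of 32 epithelial genes, 7 (21.9%) were lower in selenium females and higher in selenium males, against 27.2% of all named genes. In all, 25 were higher on selenium in females and 30 in males, with medians of 0.21 and 0.28. The 4 members of smallest p were keratin genes. The gene krt94 read 10.96, 11.30 and 10.96 in control females and 10.50, 10.06, 10.70 and 10.75 in selenium females. In males krt94 read 11.12, 10.58, 10.53 and 10.81 on control and 11.22, 11.17, 11.21 and 10.79 on selenium. The females were apart and the males overlapped, with -0.57 ± 0.18 and 0.33 ± 0.17. The simple-epithelium keratin genes krt8 (-0.44 ± 0.15 and 0.19 ± 0.14) and krt18b (-0.50 ± 0.24 and 0.25 ± 0.23) had the same signs, and krt15 had -0.075 ± 0.36 and 1.41 ± 0.33.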

How the data were processed

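Whole-brain RNA of 15 zebrafish was hybridised to Affymetrix 3′ arrays, 1 fish each. Each value the authors deposited is a log2 signal of 1 probe set. Per the submitters' processing notes, RMA and affy were used, with versions not given. The log2 signals were used as deposited, with no further scaling and no filter on dim probe sets. After 115 control probe sets were left out, 10795 of 15502 had 1 gene symbol, 135 several and 4572 none, which gave 8793 named genes. The 4 group means were fitted by limma 3.58.1 (R 4.3.3), whose moderation raised 11 residual degrees of freedom to 13.8. Tests were two-sided, with Benjamini-Hochberg adjustment over all 15502 probe sets. No label gave a batch or a pairing.

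The text names, for each direction, the 12 genes of smallest p among those 0.25 log2 units or more apart in opposite directions, up to 4 members of smallest p of a list (brightest probe set), the selenoproteins (12 of 24 singly, the other 12 as a range), and gpx1a, sdhb, idh3b and slc25a11. The members and the 50 lists were chosen with earlier results of these data known. Lists were symbol patterns, and matches outside the family were removed by name. They are described by counts and medians, with no test. The fit was checked on simulated arrays in which 200 probe sets differed. Alternatives were centred arrays, quantile normalization applied again, a dim filter at a mean of 5, the brightest probe set of each gene, array weights, each sex alone, gapdh or muscle and retina covariates, and leaving out fish. Probe set coordinates and sequences were not used here.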

Additional observations from a re-analysis of the deposited data

Results flagged for a closer look

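In 24 of 459 groups of 4 fish that were examined, for the genes named and the list means, 1 fish lay far from the other 3 by Dixon's criterion, and chance gives about 1 in 20 such groups. Among control males, ranbp9 was high in fish 2 (9.44 against 8.98 to 9.01 in the others), dhcr7 was low in fish 1 (7.46 against 10.0 to 10.2), slc39a3 was high in fish 2 (9.06), selenow1 low in fish 2 (11.53), mat2b high in fish 3 (8.98), ndufaf5 low in fish 1 (9.73), u2af2b high in fish 1 (10.8) and prmt1 high in fish 1 (11.5). The mean of the endoplasmic reticulum list was high in control male 1 (9.23 against 9.10 to 9.11). Among selenium females, dhcr7 was low in fish 2 (10.4), mllt1b low in fish 4 (8.64), rps16 low in fish 1 (11.5), slc40a1 high in fish 2 (9.91), slc30a6 high in fish 3 (7.302) and rbm7 high in fish 2 (8.50). Among selenium males, rps3a was low in fish 4 (13.03), krt94 low in fish 4 (10.8), gpx4b low in fish 1 (11.4), krt18b high in fish 1 (6.43), id3 low in fish 2 (10.1), ndufaf5 high in fish 3 (10.1), syt9a low in fish 4 (9.50) and asl high in fish 3 (7.55). The mean of the mitochondrial ribosomal list was low in selenium male 1 (9.43 against 9.60 to 9.62), the fish with the highest muscle list mean.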

How the results depend on the processing

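The number of fish limits these results: the typical 95% half-width of a difference between the sexes was 0.370 log2 units. No paired analysis was possible because each fish carries a number of its own and the groups share none. The count of probe sets called between the sexes was 0 without any 1 fish and in the other settings, except 2 without selenium males 2 and 4 (atp2a1 and a probe set without a symbol) and 3 without selenium males 1, 2 and 4 (smyhc1, ttn.2 and a probe set without a symbol), where the lone selenium male was assumed to vary like the other groups. The female count was 1 with each sex fitted alone and 2 with muscle and retina covariates. It was 0 to 5 without 1 fish each, with 5 without control female 3 and 3 without selenium female 2. Those 5 included the dimmer idh3b probe set and not the brighter one. The male count was 15 without selenium males 2 and 4, 15 without selenium males 1, 2 and 4, and 0 to 0 without 1 fish each. The probe sets opposed by 0.25 or more numbered 162 with 1 probe set a gene (the brightest), 1129 at 0.15 and 39 at 0.5, and 248 to 398 without 1 fish each, lowest without control female 2 and highest without control female 3. The probe sets apart in opposite directions in both sexes numbered 53 with centred arrays, 71 without selenium male 1 and 106 without selenium males 2 and 4, settings chosen after the data were seen. Of 3707 values of the 138 gene results under the alternatives, 3701 kept their direction and 0 reached an adjusted p under 0.05. Direction here is the sign of the difference between the sexes, not whether the signs of the 2 sexes stayed opposed. Settings that changed only the variances or the set of probe sets left the estimates as they were, so their direction could not change. Most of these genes were also picked for a small p of that same difference. The difference between the sexes was -0.0039 for fdft1 with the gapdh covariate and 0.036 for slc25a11 with centred arrays. It was -0.0061 to 0.214 for selenop2 without 1 fish each, lowest without control female 2, and for txnrd3 0.148 with muscle and retina covariates, 0.0034 without selenium males 2 and 4 and 0.146 without selenium males 1, 2 and 4. These 6 values had the opposite sign to the reported ones, and the cause was not tested. Of 1150 list medians under the alternatives, 106 moved by more than 1 SD between fish, 25 of them with centred arrays, 18 with muscle and retina covariates and 13 with the gapdh covariate.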

Other observations

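Further lists are given here beside the 27.2% of all named genes that stood lower in selenium females and higher in selenium males and the 29.1% with the reverse. With centred arrays 1518 of the 8793 named genes had the first order and 3562 the second. Proteasome genes, which degrade tagged proteins, had 22 of 49 members (44.9%) in the first order and 13 in the second, with a median of -0.051 between the sexes, and 13 and 21 with centred arrays. The neuronal marker list had 5 and 5 of 22, with a median of 0.0053, and 2 and 13 with centred arrays. Microglia and leukocyte genes had 6 of 30 in the first order and 12 (40%) in the second, 4 and 17 with centred arrays, and 0 had an unadjusted p under 0.05.

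Other single genes with opposite signs, chosen after their values were seen, follow. The chaperone gene hspa12a had -0.65 ± 0.58 in females and 1.46 ± 0.53 in males, with females apart and males overlapping. Its values were 9.64, 9.70 and 9.35 in control females, 9.10, 9.19, 8.79 and 8.58 in selenium females, 8.83, 9.56, 6.14 and 8.62 in control males and 9.76, 10.20, 9.02 and 10.02 in selenium males, with control male 3 well below the other fish. The dopamine receptor genes drd2a (-0.26 ± 0.19 and 0.49 ± 0.17) and drd3 (-0.23 ± 0.16 and 0.21 ± 0.14) both stood lower in selenium females and higher in selenium males. The drd2a groups were apart in males and overlapped in females, and those of drd3 overlapped in both sexes. The spindle motor gene kif11 had -0.45 ± 0.24 and 0.45 ± 0.22, with overlap in both sexes.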
